A study of Homo sapiens with 4 samples.

Results

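YAP1 and WWTR1, which encode the transcriptional coactivators YAP and TAZ, and a set of genes that these coactivators act on were followed in Huh7 and Huh1, which are established lines of human hepatocellular carcinoma, treated with an siRNA against ODC1 or a negative control siRNA. The set was chosen by name, with earlier results of these data known. It held 10 symbols, of which 9 were found among 18382 symbols in the deposited tables. TEAD1 was the other one and was not analysed here. The 4 libraries were Huh7 with ODC1 siRNA, Huh7 with control siRNA, Huh1 with ODC1 siRNA and Huh1 with control siRNA. Each of these combinations was 1 library of total RNA, so no group had a replicate, and the cells of all groups received an siRNA. The ODC1 enzyme turns ornithine into putrescine, the first committed step towards polyamines. The labels give no siRNA sequence, dose or time of treatment. In bulk RNA of this kind, fewer cells that express a gene and less RNA per cell cannot be told apart.

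In the Hippo pathway the kinases STK3 and STK4 activate LATS1 and LATS2, which phosphorylate YAP and TAZ and keep them out of the nucleus. When they are not phosphorylated, YAP and TAZ enter the nucleus and bind the DNA-binding TEAD factors to raise transcription of their targets. In liver the pathway is known for its control of organ size, and YAP is often active in liver tumours. The 9 genes fall into the coactivators (YAP1, WWTR1), secreted matricellular targets (CYR61 and CTGF, now named CCN1 and CCN2), a nuclear and sarcomeric target (ANKRD1), a receptor target (AXL), and targets whose proteins restrain YAP in return (AMOTL1, AMOTL2, LATS2). Phosphorylation and localisation of YAP or TAZ cannot be read from RNA.

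Values were RPKM, reads scaled by transcript length and library depth, so that levels can be compared between genes. Library depths, worked out from the smallest steps in the values, lay between 10215332 and 13384836 reads per library. ODC1 stood at 7.50 RPKM with ODC1 siRNA and 167 RPKM with control siRNA in Huh7, and at 25.01 RPKM with ODC1 siRNA and 103 RPKM with control siRNA in Huh1, and was thus lower under its own siRNA in both lines. The 12 hepatocyte markers examined were all above 1 RPKM in at least 1 library, among them ALB with 920 and 1166 RPKM in Huh7 and 2806 and 3447 RPKM in Huh1, each with ODC1 siRNA and control siRNA in that order. Of 4 endothelial markers with a value, none exceeded 0.0247 RPKM in any library. Of the blood markers, PTPRC, CD3E, CD14 and HBB were below 1 RPKM, while CD68, which tumour cells can also express, stood at 6.05 and 3.71 RPKM in Huh7 and at 24.8 and 23.3 RPKM in Huh1.

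Promoter sequence is shown for CTGF and ANKRD1, the targets whose windows held the TEAD word GGAATG more than once, and for YAP1, which is not among the targets. The sequences are the 250 bases before the transcription start in RefSeq on GRCh38.p14, and capitals mark GGAATG on the strand of the gene. The CTGF window lies on the minus strand at chr6:131951373-131951622, that of ANKRD1 on the minus strand at chr10:90921088-90921337, and that of YAP1 on the plus strand at chr11:102110197-102110446.
CTGF: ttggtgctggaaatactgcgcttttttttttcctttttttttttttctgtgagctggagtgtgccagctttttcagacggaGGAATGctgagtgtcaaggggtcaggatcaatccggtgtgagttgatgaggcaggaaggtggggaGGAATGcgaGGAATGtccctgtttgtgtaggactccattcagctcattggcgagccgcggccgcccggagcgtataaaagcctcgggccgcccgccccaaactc
ANKRD1: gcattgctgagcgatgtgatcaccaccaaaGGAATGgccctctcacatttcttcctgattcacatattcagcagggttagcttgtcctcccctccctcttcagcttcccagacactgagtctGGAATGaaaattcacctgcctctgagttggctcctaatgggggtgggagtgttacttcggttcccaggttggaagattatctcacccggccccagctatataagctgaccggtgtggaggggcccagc
YAP1: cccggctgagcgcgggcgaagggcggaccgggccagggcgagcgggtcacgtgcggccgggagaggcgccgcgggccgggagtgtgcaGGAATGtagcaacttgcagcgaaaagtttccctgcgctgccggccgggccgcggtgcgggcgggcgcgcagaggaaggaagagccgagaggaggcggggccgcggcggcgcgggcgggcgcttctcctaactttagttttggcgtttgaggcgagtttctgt

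GGAATG was searched on both strands in windows from 250 bases before to 50 bases after each start. In CTGF it began 169, 104 and 95 bases before the start, in ANKRD1 220 and 128 bases before it, and in YAP1 162 bases before it. Of 35116 windows of this length, 14.0% held the word at least once, 1.37% at least 2 times and 0.128% at least 3 times. RefSeq windows were found for 8 of the 9 genes, 11 windows in all, and 6 of them held the word. The promoter of CYR61 was not searched. AXL and AMOTL2 each held it in 1 of 2 windows, and LATS2 held it just after its start. AMOTL1 and WWTR1 did not hold these letters in the windows searched. The AP-1 word TGANTCA, which reads the same on both strands apart from its middle base, occurred once in ANKRD1, 195 bases before the start, and in 7.71% of all windows. These matches describe the sequence and do not show binding.

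Levels differed most between the lines, and they differed in the targets and WWTR1 but not detectably in YAP1. CYR61, CTGF, ANKRD1 and AMOTL2 were several-fold higher in Huh7 than in Huh1 under both siRNAs. LATS2, AXL and WWTR1 were higher too, by less. The question of this comparison was how far the lines differ in this pathway, and the test was the line term of a limma fit over all 4 libraries, in which each line has 2 libraries that carry different siRNAs. Nothing in the labels says that the libraries come from separate cultures. The p-values rest only on the spread left after line and siRNA. That is how far the siRNA changes of the lines lay apart, moderated over all genes. They do not measure the spread between cultures of a line.

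YAP1 (NM_006106; chromosome 11, 102110461 to 102233423, plus strand, in GENCODE 29 on GRCh38) stood at 23.6 RPKM with ODC1 siRNA and 21.4 RPKM with control siRNA in Huh7, and at 22.4 RPKM with ODC1 siRNA and 20.9 RPKM with control siRNA in Huh1. The levels of both lines overlapped. The difference between Huh7 and Huh1 was 0.05 on the log2(RPKM + 1) scale (SE 0.084, limma adjusted p = 0.60), and was -0.04 with upper quartile scaling or quantile normalization. YAP1 lay above 69.1% to 71.9% of the tested genes in the 4 libraries.

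WWTR1 (NM_015472; chromosome 3, 149517235 to 149736714, minus strand) stood at 14.2 RPKM with ODC1 siRNA and 19.6 RPKM with control siRNA in Huh7, and at 4.24 RPKM with ODC1 siRNA and 4.66 RPKM with control siRNA in Huh1. Both Huh7 libraries were above both Huh1 libraries, by 1.70 on the log2 scale (SE 0.117, adjusted p = 2.53e-06). In Huh7 the level of WWTR1 was below that of YAP1 by less than in Huh1, where WWTR1 was well under YAP1 in both libraries. The gene WWTR1-AS1 lies antisense within WWTR1, and the use of strand in counting is not given in the sources used here. Any of its reads on sequence shared with the WWTR1 transcript could not be told apart from those of WWTR1. Whether they share such sequence was not examined.

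**Figure D1:**
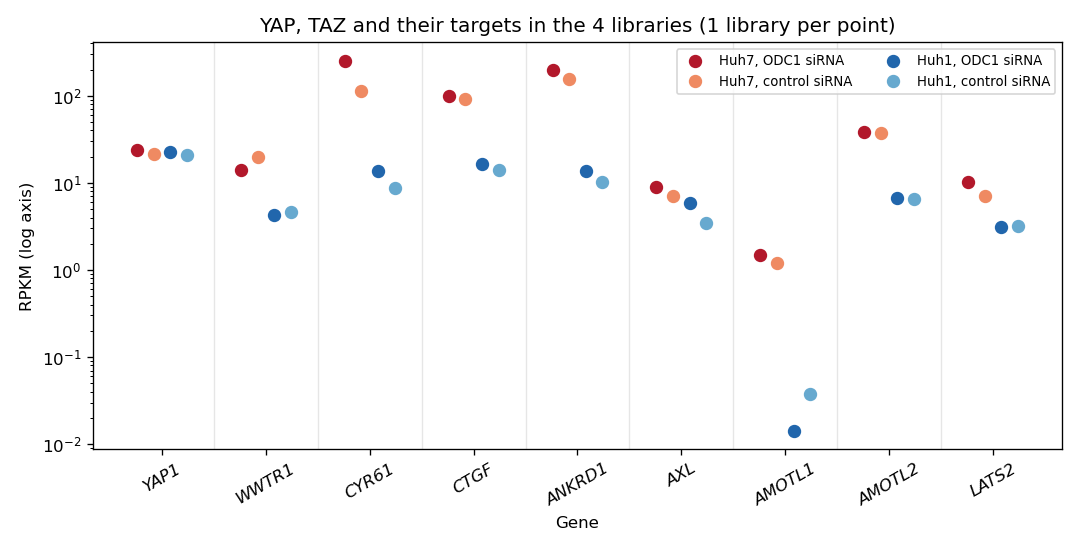
RPKM on a log axis of the 9 genes in the 4 libraries, 1 point per library, with Huh7 in red and orange, Huh1 in dark and light blue, and the ODC1 siRNA library left of the control siRNA library of the same line. YAP1 is level across the libraries, between 20.9 and 23.6 RPKM, while both Huh7 points of the other 8 genes lie above both Huh1 points.

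On the log2(RPKM + 1) scale CYR61, ANKRD1 and CTGF had the widest gaps. By the ratio of RPKM that of AMOTL1 was wider, on few reads in Huh1, and with a pseudocount of 0.1 its log2 difference was 3.51, against 2.63 for CTGF. CYR61 (NM_001554; chromosome 1, 85580761 to 85583962, plus strand) encodes a matricellular protein that binds integrins. It stood at 251 RPKM with ODC1 siRNA and 113 RPKM with control siRNA in Huh7, and at 13.8 RPKM with ODC1 siRNA and 8.83 RPKM with control siRNA in Huh1. The ratio of Huh7 to Huh1 was 18.2 under ODC1 siRNA (95% counting interval 16.3 to 20.3) and 12.8 under control siRNA (11.3 to 14.6), and over both siRNAs the log2 difference was 3.82 (SE 0.12, adjusted p = 2.28e-08). With ODC1 siRNA the gene stood above 98.2% of tested genes in Huh7 and above 58.2% in Huh1.

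CTGF (NM_001901; chromosome 6, 131948176 to 131951373, minus strand), the gene of a related matricellular protein, stood at 99.6 RPKM with ODC1 siRNA and 92.4 RPKM with control siRNA in Huh7, and at 16.6 RPKM with ODC1 siRNA and 14.2 RPKM with control siRNA in Huh1. Its log2 difference between the lines was 2.57 (SE 0.0772, adjusted p = 1.85e-08). ANKRD1 (NM_014391; chromosome 10, 90912096 to 90921276, minus strand), an ankyrin repeat protein known from heart muscle, stood at 199.7 RPKM with ODC1 siRNA and 157 RPKM with control siRNA in Huh7, and at 13.6 RPKM with ODC1 siRNA and 10.3 RPKM with control siRNA in Huh1. The log2 difference was 3.79 (SE 0.0729, adjusted p = 1.81e-09). In Huh1 the levels of CYR61, CTGF and ANKRD1 were all below that of YAP1 in the same library, and in Huh7 all were above it.

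AXL (NM_001699; chromosome 19, 41219203 to 41261766, plus strand) encodes a receptor tyrosine kinase for GAS6. Its levels were 9.01 RPKM with ODC1 siRNA and 7.02 RPKM with control siRNA in Huh7, and 5.87 RPKM with ODC1 siRNA and 3.43 RPKM with control siRNA in Huh1. The gap between the lines was the smallest among the targets, at a log2 difference of 0.70 (SE 0.124, adjusted p = 0.000881).

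Of the genes whose products restrain YAP, AMOTL2 (NM_016201; chromosome 3, 134355874 to 134375479, minus strand), which encodes an angiomotin-like protein that holds YAP at junctions, stood at 38.4 RPKM with ODC1 siRNA and 37.1 RPKM with control siRNA in Huh7, and at 6.62 RPKM with ODC1 siRNA and 6.47 RPKM with control siRNA in Huh1. The log2 difference was 2.36 (SE 0.0894, adjusted p = 6.95e-08). LATS2 (NM_014572; chromosome 13, 20973032 to 21061547, minus strand), a kinase gene that is both an inhibitor of YAP and its target, stood at 10.4 RPKM with ODC1 siRNA and 7.01 RPKM with control siRNA in Huh7, and at 3.14 RPKM with ODC1 siRNA and 3.15 RPKM with control siRNA in Huh1, with a log2 difference of 1.20 (SE 0.144, adjusted p = 8.23e-05). AMOTL1 (NM_130847; chromosome 11, 94706431 to 94876753, plus strand), the paralog of AMOTL2, was the lowest of the 9 genes, at 1.48 RPKM with ODC1 siRNA and 1.19 RPKM with control siRNA in Huh7, and at 0.0142 RPKM with ODC1 siRNA and 0.0378 RPKM with control siRNA in Huh1. The Huh1 values amount to about 1 and 4 reads, so the ratio of Huh7 to Huh1 under control siRNA, 31.4, had a counting interval of 13.6 to 133.

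In all, 8 of the 9 genes were called higher in Huh7 and none lower (limma, with none lower at an unadjusted p under 0.05 either), beside 43.1% of 12039 tested genes called higher and 30.8% called lower. Most genes were thus called different between the lines. AMOTL1 passed the filter of 1 RPKM only through Huh7 and so had to differ. Among the 8 genes with at least 1 RPKM in both lines, 7 were called higher, beside 40.0% of 10289 such genes, and their median log2 difference was 2.03, beside 0.09. By size, 7 of the 9 genes were at least 2-fold higher in Huh7 under ODC1 siRNA, beside 16.2% of all genes, and 6 under control siRNA, beside 17.0%. All genes tested had a median difference of 0.13 between Huh7 and Huh1, and 0.013 after quantile normalization. With upper quartile scaling and with quantile normalization, 8 genes were again called higher. Since the genes were chosen with earlier results of these data known, the counts between the lines are a description.

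**Figure D2:**
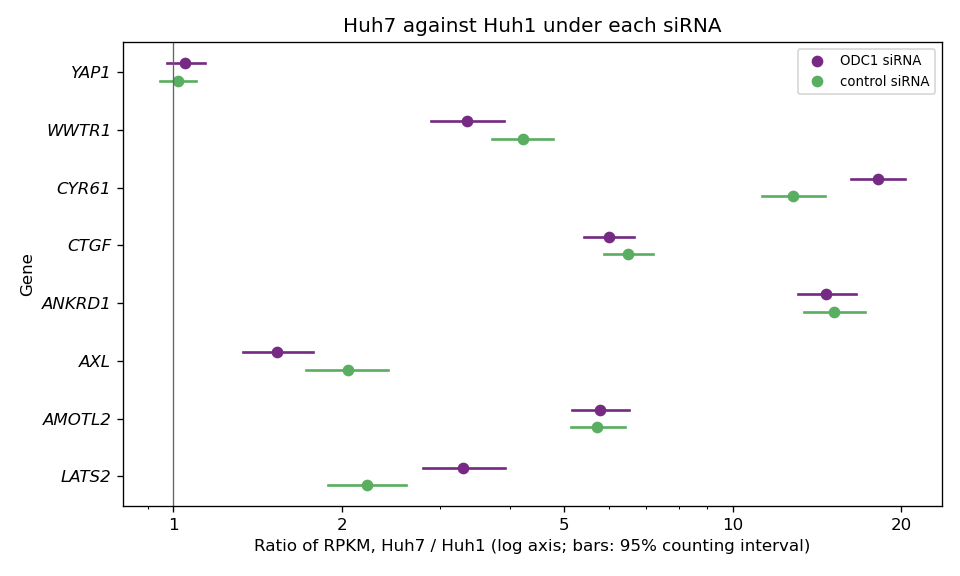
Ratio of RPKM in Huh7 to that in Huh1 on a log axis for 8 genes, with the ODC1 siRNA libraries in purple above the control siRNA libraries in green and bars for the 95% counting interval. Both YAP1 ratios, 1.05 and 1.02, have intervals that include 1, whereas the ratios of ANKRD1, 14.7 and 15.2, and of CYR61 lie far above it; AMOTL1 is left out for its few reads in Huh1.

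From high to low, the order of levels under control siRNA in Huh7 was ANKRD1, CYR61, CTGF, AMOTL2, YAP1, WWTR1, AXL, LATS2 and AMOTL1. The ranges of both Huh7 libraries overlapped for ANKRD1 and CYR61 and for AXL and LATS2, and for no other neighbours. In Huh1 under control siRNA the order was YAP1, CTGF, ANKRD1, CYR61, AMOTL2, WWTR1, AXL, LATS2 and AMOTL1. There the ranges of ANKRD1 and CYR61 overlapped, as did those of WWTR1 and AXL.

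Other values moved with the line too. Of 7 fibroblast and stellate cell markers, 5 were tested, and 4 of these (COL1A1, COL1A2, COL3A1 and PDGFRA) passed the filter only through Huh7 and so had to be higher there. LUM, above 1 RPKM in both lines, was called higher in Huh7 as well. The list had a summed level of 386 RPKM with ODC1 siRNA and 299 RPKM with control siRNA in Huh7, and 15.7 RPKM with ODC1 siRNA and 12.1 RPKM with control siRNA in Huh1. COL1A1 stood at 128 and 107 RPKM in Huh7, and at 0.0763 and 0.115 RPKM in Huh1, with ODC1 siRNA given first. The hepatocyte list was mixed, with 5 of 12 markers called higher in Huh7, beside 43.1% of all genes, and 7 called lower, beside 30.8%. The part of these differences in the levels of the YAP targets was not tested.

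The ODC1 siRNA comparison asked whether the pathway responded to loss of ODC1. CYR61 and ANKRD1 rose over both lines, CYR61 by more than any other of the 9 genes. CTGF, AMOTL2 and YAP1, and also AXL, LATS2, AMOTL1 and WWTR1, did not pass the threshold. In the limma fit, which held terms for line and siRNA, the error was estimated from how far the siRNA changes in Huh7 and Huh1 lay apart, with 1 residual degree of freedom, and was moderated over all genes.

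CYR61 was 2.22 times as high with ODC1 siRNA as with control siRNA in Huh7 (5890 and 3171 reads, 95% counting interval 2.12 to 2.32). In Huh1 the ratio was 1.57 (356 and 271 reads, 1.33 to 1.84). The direction was the same in both lines, and the mean log2 fold change was 0.87 (SE 0.12, adjusted p = 0.0174). The lines differed in the size of this change, at 1.14 in Huh7 and 0.59 in Huh1, and also in the ODC1 transcript left, at 0.0449 of the control level in Huh7 and 0.242 in Huh1. The part of the remaining ODC1 in this was not tested. Whether the change differs between the lines was not tested, because a design with 1 library for each combination leaves no residual degree of freedom for it.

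ANKRD1 was 1.27 times as high with ODC1 siRNA in Huh7 (95% counting interval 1.22 to 1.33) and 1.32 times as high in Huh1 (1.12 to 1.56). The rise of 0.36 on the log2 scale (SE 0.0729, adjusted p = 0.0488) was nearly the same in both lines but lay just inside the threshold. Under the 8 alternatives with a test, its adjusted p ranged from 0.0334 to 1 and passed under 1 of them, upper quartile scaling. That of CYR61 ranged from 0.00592 to 1 and passed under 5 of them, not without the filter (0.299), without the trend (0.204) or without the line term (1). It passed narrowly with quantile normalization (0.05 when rounded), a filter at 5 RPKM (0.0481) and a pseudocount of 0.1 (0.0392). With upper quartile scaling (0.00592) and the trend on counting variance (0.0119) it passed by more.

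AXL was 1.28 times as high with ODC1 siRNA in Huh7 (1.12 to 1.47) and 1.71 times in Huh1 (1.43 to 2.04), where it had the largest ratio of the 9 genes. Averaged over the lines it stood 0.48 higher on the log2 scale with ODC1 siRNA (SE 0.124), short of the threshold (adjusted p = 0.0914). CTGF had ratios of 1.08 in Huh7 (1.02 to 1.14) and 1.17 in Huh1 (1.02 to 1.34) and a mean of 0.16 (SE 0.0772, adjusted p = 0.309). CTGF and CYR61 are both standard readouts of YAP. Their counting intervals did not overlap in Huh7 but did in Huh1 (1.02 to 1.34 for CTGF and 1.33 to 1.84 for CYR61). Whether the changes of these genes differ was not tested, since counting intervals leave out the spread between libraries.

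AMOTL2 was level, with ratios of 1.04 in Huh7 (0.971 to 1.10) and 1.02 in Huh1 (0.883 to 1.19). Its mean log2 fold change over both lines was 0.039 (limma adjusted p = 0.853). LATS2 stood 1.48 times as high with ODC1 siRNA in Huh7 (1.31 to 1.67) and at 0.995 of control in Huh1 (0.816 to 1.21), and its mean of 0.25 did not pass (adjusted p = 0.396). AMOTL1 had a ratio of 1.25 in Huh7 (0.975 to 1.6) and, on few reads, 0.376 in Huh1 (0.00605 to 3.01). Its mean over both lines was 0.075 (limma adjusted p = 0.86).

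Of the coactivators, YAP1 had ratios of 1.10 in Huh7 (1.02 to 1.19) and 1.07 in Huh1 (0.992 to 1.15) and a mean log2 fold change of 0.11 (SE 0.084, adjusted p = 0.501). WWTR1 was the only one of the 9 genes that was lower with ODC1 siRNA in both lines, at 0.723 of control in Huh7 (0.659 to 0.793) and 0.909 in Huh1 (0.764 to 1.08). Its mean of -0.28 (SE 0.117) did not pass (adjusted p = 0.247). All these intervals cover counting error only, and reads on transcripts other than CYR61, YAP1 and ODC1 rest on an approximate length.

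**Figure D3:**
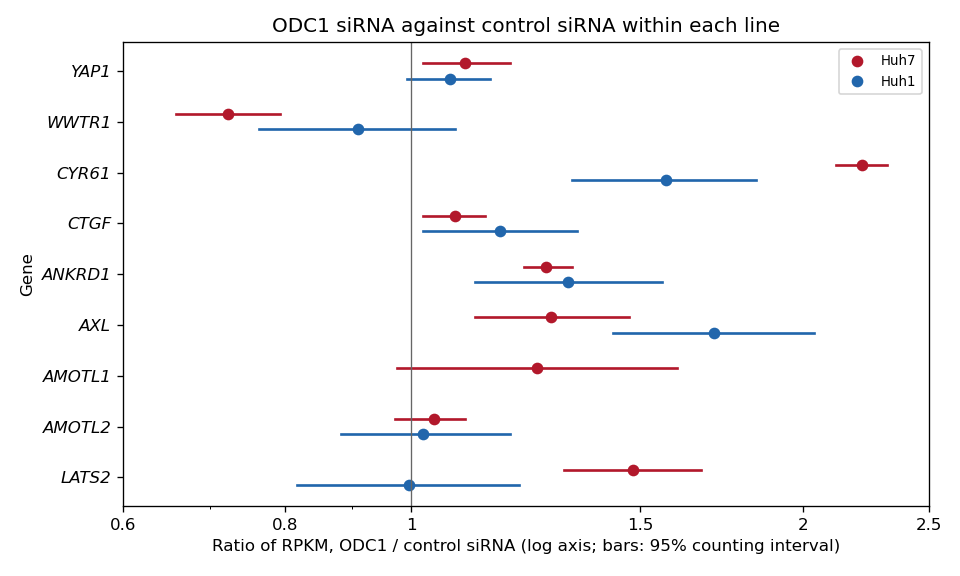
Ratio of RPKM with ODC1 siRNA to that with control siRNA on a log axis, with Huh7 in red above Huh1 in blue and bars for the 95% counting interval. CYR61 lies to the right in both lines, at 2.22 and 1.57, and WWTR1 to the left, at 0.723 and 0.909; AMOTL1 in Huh1 is left out for its few reads.

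Of the 9 genes, 2 were called higher with ODC1 siRNA, beside 1.5% of the 12039 genes tested, and none was called lower, beside 0.615%. At an unadjusted p under 0.05, 3 were higher, beside 10.7% of all genes, and 1 lower, beside 8.25%. The median of the 9 genes was 0.16, beside 0.0063 over all genes, and 6 of the 9 were positive in both lines, beside 34.1% of all genes. By size, CYR61 was the only one at least 2-fold higher in Huh7, beside 0.342% of genes with at least 1 RPKM, and none was in Huh1, beside 0.0550%. The genes were chosen with earlier results of these data known, so these counts are a description. Upper quartile scaling called 464 genes, 57.8% of them higher, against 255 with 71.0% higher in the values as deposited.

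Among markers of cell types, TTR and LUM rose and ALB, FGA and FGG fell with ODC1 siRNA. Of 12 hepatocyte markers, 1 was called higher, beside 1.5% of all genes, and 3 lower, beside 0.615%. At an unadjusted p under 0.05 limma gave 1 higher and 8 lower, beside 10.7% and 8.25%. Their median was -0.25, beside 0.0063 over all genes. In both lines 8 of the 12 were negative, but the share of all genes negative in both was not worked out, so this count has no background. LUM stood at 193 RPKM with ODC1 siRNA and 143 RPKM with control siRNA in Huh7, and at 15.5 RPKM with ODC1 siRNA and 12.0 RPKM with control siRNA in Huh1, where it made up nearly all of the summed level of the fibroblast list. The fibroblast list had a median change of 0.37 in Huh7. Its median of 0.00 in Huh1 cannot show whether the list moved there. COL1A1, COL1A2, COL3A1 and PDGFRA did not exceed 0.115 RPKM in Huh1, which holds their log2(RPKM + 1) changes near the floor. LUM, the tested marker above 1 RPKM in both lines, rose by 0.43 in Huh7 and 0.35 in Huh1. The part of these markers in the change of CYR61 was not tested.

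Other commonly used YAP and TEAD targets were taken as a list of 15, of which 14 were tested, and 2 rose past the threshold, beside 1.5% of all genes, while none fell, beside 0.615%. IGFBP3, which binds insulin-like growth factors, stood at 223 RPKM with ODC1 siRNA and 92.0 RPKM with control siRNA in Huh7, and at 32.8 RPKM with ODC1 siRNA and 20.1 RPKM with control siRNA in Huh1. It rose by 0.97 (SE 0.124, adjusted p = 0.0157), so that its changes of 1.27 in Huh7 and 0.68 in Huh1 lay beside those of CYR61. MYOF, a membrane repair protein of the ferlin family, stood at 84.7 RPKM with ODC1 siRNA and 52.0 RPKM with control siRNA in Huh7, and at 50.6 RPKM with ODC1 siRNA and 35.5 RPKM with control siRNA in Huh1, and rose by 0.60 (SE 0.0788, adjusted p = 0.0163). The list had a median of 0.26, beside 0.0063 over all genes. At an unadjusted p under 0.05 limma gave 7 higher and none lower, beside 10.7% and 8.25% of all genes. Of the 14 genes, 8 were positive in both lines, beside 34.1% of all genes. In both lines 3 were negative, for which the share of all genes was not worked out. Between the lines, 12 of the 14 were called higher in Huh7 and 2 lower, but ARHGEF17, CCDC80 and FOXF2 passed the filter only through Huh7. Of the 11 with at least 1 RPKM in both lines, 9 were called higher and 2 lower, beside 40.0% and 30.4% of such genes.

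**Figure D4:**
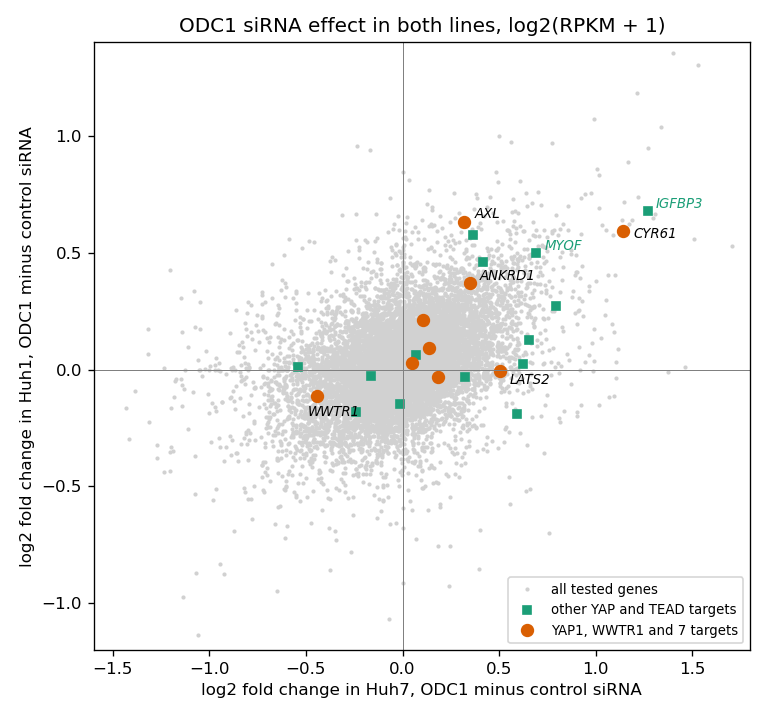
Log2 fold change with ODC1 siRNA on log2(RPKM + 1) in Huh7 (x axis) and Huh1 (y axis) for all tested genes (grey), the 9 genes (orange) and the other YAP and TEAD targets (green); 2 genes lie outside the axes. CYR61, at 1.14 and 0.59, lies beside IGFBP3, at 1.27 and 0.68, in the upper right, and WWTR1, at -0.44 and -0.11, in the lower left.

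The Hippo kinases and upstream regulators showed no call among 24 tested of 25, beside 1.5% of all genes called higher and 0.615% lower. At these shares, the absence of calls does not set a list of this size apart from other genes. At an unadjusted p under 0.05 limma gave 3 higher and 2 lower, beside 10.7% and 8.25% of all genes. The median of the list was 0.03, beside 0.0063 over all genes. The largest changes were in MOB1A, listed under its older symbol MOBKL1B, which encodes the LATS coactivator, and in WWC1, the gene of the scaffold KIBRA. MOBKL1B was at 32.0 RPKM with ODC1 siRNA and 50.5 RPKM with control siRNA in Huh7, and at 37.1 RPKM with ODC1 siRNA and 44.0 RPKM with control siRNA in Huh1 (mean -0.44, adjusted p = 0.0669). WWC1 was at 24.8 RPKM with ODC1 siRNA and 18.3 RPKM with control siRNA in Huh7, and at 10.2 RPKM with ODC1 siRNA and 7.77 RPKM with control siRNA in Huh1 (mean 0.38, adjusted p = 0.0748). MOBKL1B passed under 2 of the 8 alternatives (lowest adjusted p = 0.0307) and WWC1 under 1 (0.0339). Between the lines, 15 of the 24 were called higher in Huh7 and 3 lower, but AMOT and WTIP passed the filter only through Huh7. Of the other 22, 13 were called higher and 3 lower, beside 40.0% and 30.4% of genes with at least 1 RPKM in both lines, and their median was 0.35, beside 0.09.

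Of the other TEAD factors, TEAD2 stood at 18.9 RPKM with ODC1 siRNA and 18.4 RPKM with control siRNA in Huh7, and at 21.5 RPKM with ODC1 siRNA and 18.8 RPKM with control siRNA in Huh1. TEAD4 stood at 10.8 RPKM with ODC1 siRNA and 10.1 RPKM with control siRNA in Huh7, and at 14.9 RPKM with ODC1 siRNA and 14.3 RPKM with control siRNA in Huh1, and was lower in Huh7 (log2 difference -0.44, adjusted p = 0.00265). Neither TEAD factor was called higher in Huh7, and TEAD3 was not analysed here. Among the VGLL cofactors, which bind TEAD factors in place of YAP, VGLL4 was the one with the largest siRNA effect (0.12, adjusted p = 0.586), and no gene of this list was called (limma, and none at an unadjusted p under 0.05).

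VGLL3, singled out after its values were seen, passed the filter only through Huh7 and had a wider gap between the lines than any of the 9 genes. It stood at 106 RPKM with ODC1 siRNA and 92.8 RPKM with control siRNA in Huh7, and at 0.217 RPKM with ODC1 siRNA and 0.226 RPKM with control siRNA in Huh1 (log2 difference 6.36, SE 0.105). VGLL1 and VGLL2 were listed at 0 in every library. The siRNA effect on VGLL3 was 0.09 and did not pass (adjusted p = 0.689). The other CCN genes NOV, WISP1, WISP2 and WISP3 were all below 0.23 RPKM in every library, so CYR61 and CTGF were the only members of this family above 1 RPKM.

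By pattern over the 4 libraries, the genes nearest to CYR61 were MT1G, ESAM, MT2A, NUAK2 and CNN1, at Euclidean distances of 0.263 to 0.567 on centred log2(RPKM + 1) values. Those nearest to CTGF were G2E3, CDCA7L, NUBPL, BMP2 and PI4KA, at 0.0961 to 0.134. Only 4 points define each pattern, and with a pseudocount of 0.1 none of the 5 neighbours of CYR61 and 2 of the 5 of CTGF were among the nearest. NUAK2 also belongs to the list of other YAP and TEAD targets, and CNN1 to that of SRF and actin genes.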

How the data were processed

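RNA from 4 libraries, 1 for each combination of line and siRNA, was made into libraries by a TruSeq protocol, per the labels. The submitters' processing notes name hg19, CASAVA 1.8.2 and TopHat2 2.0.9. Which program counted reads, with which annotation and strand setting, is not given in the sources used here. The authors deposited RPKM values for 18398 RefSeq transcripts without a header, and the values are not counts, so no count model was used.

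Values were analysed as log2(RPKM + 1), which understates changes of weak genes. limma 3.58.1 (R 4.3.3), with an intensity trend and with terms for line and siRNA, was fitted to 12039 genes that reached 1 RPKM in 1 or more libraries, with Benjamini-Hochberg adjustment at 0.05. The 1 residual degree of freedom was moderated by 7.42 prior degrees of freedom. The libraries of a line are paired by the line, which is the block. Within a line there is no test: a 2-fold rule and the exact (Clopper-Pearson, SciPy 1.17.1) counting interval of the ratio were used. Reads were recovered from RPKM steps, at the length that gave whole reads. For YAP1 that length gave fractional reads (1464.5 in Huh1 with control siRNA). Failing both, the longest GENCODE 29 transcript was used. Reads were rounded to whole numbers for the interval. Coordinates are from GENCODE 29 on GRCh38, not the authors' build. The fit was checked on made data with planted changes of at least 2-fold in either the siRNA or the line. The planted siRNA changes were equal in both lines. Outside the planted genes the made data had the same expected levels in both lines, unlike these data, so the check did not cover that. Smaller changes, and siRNA changes that differ between the lines, were not checked in this way. Members and lists were chosen with earlier results of these data known. Named were the 9 genes, ODC1, and of each list the genes past the threshold and the 2 largest changes, and the 5 genes nearest to CYR61 and to CTGF by pattern. The neighbours at a pseudocount of 0.1 were added after seeing the data. Alternatives were upper quartile scaling, quantile normalization, no filter, a filter at 5 RPKM, a pseudocount of 0.1 instead of 1, limma without trend, a trend on counting variance, no replicate block, a 1.5-fold rule and each library left out.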

Additional observations from a re-analysis of the deposited data

Results flagged for a closer look

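LATS2, AMOTL1 and VGLL4 had log2 fold changes of opposite sign in the lines, and the difference was not tested, since each line has 1 library per siRNA. LATS2 was at 0.50 in Huh7 and -0.0056 in Huh1, so that its Huh1 libraries were level. AMOTL1 was at 0.18 in Huh7 and -0.033 in Huh1, where its values rest on about 1 and 4 reads. VGLL4, a TEAD cofactor, was at -0.053 in Huh7 and 0.30 in Huh1.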

How the results depend on the processing

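With ODC1 siRNA, 2 of the 9 genes were called higher (CYR61 and ANKRD1) among 255 calls over all genes. The number was 1 of 9 genes, CYR61, and 89 calls with quantile normalization, 1 and 54 with a pseudocount of 0.1, 1 and 108 with a filter at 5 RPKM, and 1 of 9 with the trend on counting variance (334 calls). It was 2 with upper quartile scaling (464 calls). With no filter or limma without trend it was 0, with 0 calls over all genes. With no replicate block, that is without the line term, it was also 0, with 0 calls. Leaving out each library in turn with the siRNA term alone gave 0 to 0 of the 9 genes and 0 to 0 calls over all genes, because the difference between the lines then enters the error. With both terms and a library left out the value is that of the other line, without a test: CYR61 was at 0.59 to 1.14. Between Huh7 and Huh1, each of these settings called 7 or 8 of the genes higher, and leaving out a library gave 4845 to 7046 calls over all genes, against 8891. The difference of YAP1 between the lines, 0.05, was -0.04 with upper quartile scaling and with quantile normalization, and passed in none. A 1.5-fold rule counted 2 of the genes in Huh1, where the 2-fold rule counted 0. IGFBP3 and MYOF each passed under 5 of 8 alternatives and FHL2 under 1. No replicate within a line exists, so depth limits AMOTL1 and the missing replicate limits every siRNA value.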

Other observations

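Genes of SRF, its coactivators and the actin cytoskeleton, which share targets with YAP, were also followed. Of 17 genes 16 were tested, and FHL2, which encodes a LIM-domain cofactor, rose with ODC1 siRNA while none fell, beside 1.5% of all genes called higher and 0.615% lower. At an unadjusted p under 0.05 limma gave 9 higher and none lower, beside 10.7% and 8.25% of all genes. FHL2 stood at 31.5 RPKM with ODC1 siRNA and 20.9 RPKM with control siRNA in Huh7, and at 8.10 RPKM with ODC1 siRNA and 5.74 RPKM with control siRNA in Huh1 (0.50, SE 0.0957, adjusted p = 0.0421). The median of the list was 0.16, and 14 of the 16 genes were positive in both lines, beside 34.1% of all genes.

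The largest changes of this list were in the smooth muscle genes TAGLN and CNN1, which did not pass. TAGLN stood at 46.5 RPKM with ODC1 siRNA and 21.4 RPKM with control siRNA in Huh7, and at 2.74 RPKM with ODC1 siRNA and 2.27 RPKM with control siRNA in Huh1 (0.64, adjusted p = 0.113). CNN1 stood at 15.4 RPKM with ODC1 siRNA and 6.67 RPKM with control siRNA in Huh7, and at 0.171 RPKM with ODC1 siRNA and 0.0471 RPKM with control siRNA in Huh1, below the filter of 1 RPKM (0.63, adjusted p = 0.163). With a pseudocount of 0.1 the change of CNN1 was 1.04 (adjusted p = 0.0956). Between the lines, 14 of the 16 genes were called higher in Huh7 and none lower, but CNN1 passed the filter only through Huh7. Of the other 15, 13 were called higher, beside 40.0% of genes with at least 1 RPKM in both lines, and none lower, beside 30.4%. Their median was 1.17, beside 0.09.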
